A study of Mus musculus with 37 samples.

Results

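The BCL2 family decides whether a cell survives or dies by apoptosis, and the mRNA of 10 of its genes was followed in bone marrow-derived macrophages (BMDMs) after activation of Toll-like receptor 4. The members were found by gene symbol, not by their values, in a table of 24016 genes, and all 10 had a row. They were chosen with earlier results of these data known. The pro-survival members were Bcl2, Bcl2l1, Mcl1, Bcl2a1b and Bcl2a1d, the effectors of cell death were Bax and Bak1, and the BH3-only members were Bcl2l11, Bid and Bbc3.

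Bax and Bak form pores in the outer membrane of mitochondria, which lets cytochrome c out and activates caspases. Pro-survival proteins hold Bax, Bak and the BH3-only proteins in check, and BH3-only proteins such as Bim (encoded by Bcl2l11), Bid and Puma (encoded by Bbc3) carry stress signals that overcome this restraint. In macrophages, Mcl1 and A1 (encoded by the Bcl2a1 genes) are known as survival genes of myeloid cells, and Bcl2a1 is a known target of NF-κB. Bmal1, the product of Arntl, is a core transcription factor of the circadian clock that binds E-boxes as a dimer with CLOCK.

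BMDMs came from male C57BL/6J wild-type (WT) mice and male Arntl-/- mice, 6 to 9 weeks old, and bone marrow cells of both were grown for 6 days with M-CSF at 20 ug/ml. Cells of each genotype were left untreated (0 h) or given Kdo2-lipid A (KLA), the part of bacterial lipopolysaccharide that Toll-like receptor 4 recognizes, for 6, 24 or 48 h. The KLA dose for these libraries is not given in the sources used here. The Arntl deletion was in every cell of the mice, and the study's text gives the WT mice both as littermates and as purchased animals.

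Polyadenylated RNA was sequenced in 8 libraries, 1 for each genotype and time, so no difference has a replicate check, no test was made, and intervals are 95% intervals for the counting of reads only. Between 8587560 and 27036783 reads lay on genes in each library. The values are FPKM per 10000000 reads as deposited, divided by a size factor for each library (0.918 to 1.13), and are called scaled FPKM. Ratios are log2 ratios of scaled FPKM after addition of 0.1, and a difference of at least 1.5-fold in either direction was counted as past the line. Scaled FPKM of Arntl itself lay between 32.3 and 38.7 in the WT libraries and between 11.3 and 20.2 in the Arntl-/- libraries, so the genotypes did not overlap and the remaining signal was not 0. The 8 macrophage markers that had a row, Csf1r and Cd68 among them, were above the floor of 3 reads in every library, and the T cell genes Cd3e and Cd3g were at 0 in all 8, although Cd4 of the same list was at 1.28 to 14.8. Neutrophil markers were present and are given beside the Bcl2a1 values. The 5 fibroblast markers summed to 390, 483, 543 and 1076 scaled FPKM for WT and 302, 336, 359 and 660 for Arntl-/- in time order, highest at 48 h and lower in Arntl-/- cells each time. The collagens made up most of this sum, whereas Dcn, with 16.8, 42.0, 29.3 and 62.3 for WT and 39.1, 34.6, 37.0 and 91.3 for Arntl-/-, was lower in Arntl-/- cells at 6 h only. The part of these cells in the member values was not tested. For the tenth of genes with the highest expression, the log2 deviation from each gene's own mean over the 8 libraries was taken. Its median was -0.36 in the deepest library, WT at 6 h, and in the shallow libraries at 48 h it was 0.30 (WT) and 0.25 (Arntl-/-). Results for Mcl1 and Bax, which are among the most highly expressed genes, are therefore also given after a correction for expression level. The authors counted at most 3 tags per position, a limit that bears most on highly expressed genes in deep libraries. Its part in the values was not tested.

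Of the members, Bcl2a1b and Bcl2a1d are near-identical copies on chromosome 9, as is Bcl2a1a, which was not a member. The starts of their coding sequences (bases 1 to 100, GENCODE transcripts on NCBIM37, the assembly behind mm9) are shown because the aligner had to place each read by these differences, and capitals mark the positions at which the 3 genes are not all alike.
Bcl2a1a: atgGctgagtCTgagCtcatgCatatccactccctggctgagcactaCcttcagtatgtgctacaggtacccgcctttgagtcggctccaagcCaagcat
Bcl2a1b: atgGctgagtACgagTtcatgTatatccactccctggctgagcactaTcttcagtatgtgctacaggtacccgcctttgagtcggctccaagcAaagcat
Bcl2a1d: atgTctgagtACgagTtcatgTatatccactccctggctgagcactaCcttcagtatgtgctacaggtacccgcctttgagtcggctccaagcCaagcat
These stretches lie at chr9:88851889-88851988 (plus strand), chr9:89094198-89094297 (plus strand) and chr9:88626458-88626557 (minus strand). Over the whole coding sequence of 519 bases, Bcl2a1b and Bcl2a1d differed at 6 bases, Bcl2a1a and Bcl2a1d at 7, and Bcl2a1a and Bcl2a1b at 11. Of the windows of 50 bases in each transcript, 21.0% of those in Bcl2a1b and 16.0% of those in Bcl2a1d occurred in no other gene's coding transcript. The split of reads between the copies is therefore uncertain, and the change of their sum is given after the values of each copy.

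The first question was whether loss of Bmal1 changed the members' mRNA at each time. None of the 10 members was past the 1.5-fold line between the genotypes at 0, 6, 24 or 48 h. With values as deposited 1 was, Bcl2a1d at 24 h (log2 ratio 0.62). Among the 10030 genes that passed a filter on low values, as all 10 members did, 2.64% were past the line upward and 1.58% downward in Arntl-/- cells at 0 h. Upward and downward shares at 6 h were 1.93% and 1.87%. They were 3.09% and 2.19% at 24 h, while 5.08% and 4.90% of genes were past the line at 48 h. A count of 0 among 10 members is near what such shares give, and says nothing particular about the family. Over the 40 ratios (10 members at 4 times), 24 were above 0 and 16 below. The counting interval left out 0 for 27 of them, but a change smaller than the line cannot be set against the spread between cultures, which was not measured. The members' median log2 ratio was 0.10, 0.33, 0.017 and 0.0022 at 0, 6, 24 and 48 h, against -0.015, 0.013, -0.0015 and -0.019 for all genes past the filter. At 6 h the members' median was 0.19 as deposited, with -0.12 for all genes, and 0.25 with upper-quartile scaling, with -0.064 for all genes. After correction for expression level these medians were 0.048 and -0.011, so that correction, unlike the scalings by a factor for each library, brought the members' median close to that of all genes. The corrected ratios of Mcl1, Bax and Bcl2l1 were 0.034, 0.062 and -0.0084, while those of Bcl2, Bcl2a1d and Bak1 stayed at 0.45, 0.33 and 0.36. Of all genes past the line between the genotypes, the share past it upward was, in time order from 0 to 24 h, 62.6, 50.8 and 58.5%. With values as deposited they were 79.7, 13.2 and 69.9%, and after the correction 51.5, 59.6 and 47.4%. As these are RNA levels in whole cultures, fewer cells of a type and less RNA per cell cannot be told apart.

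**Figure D1:**
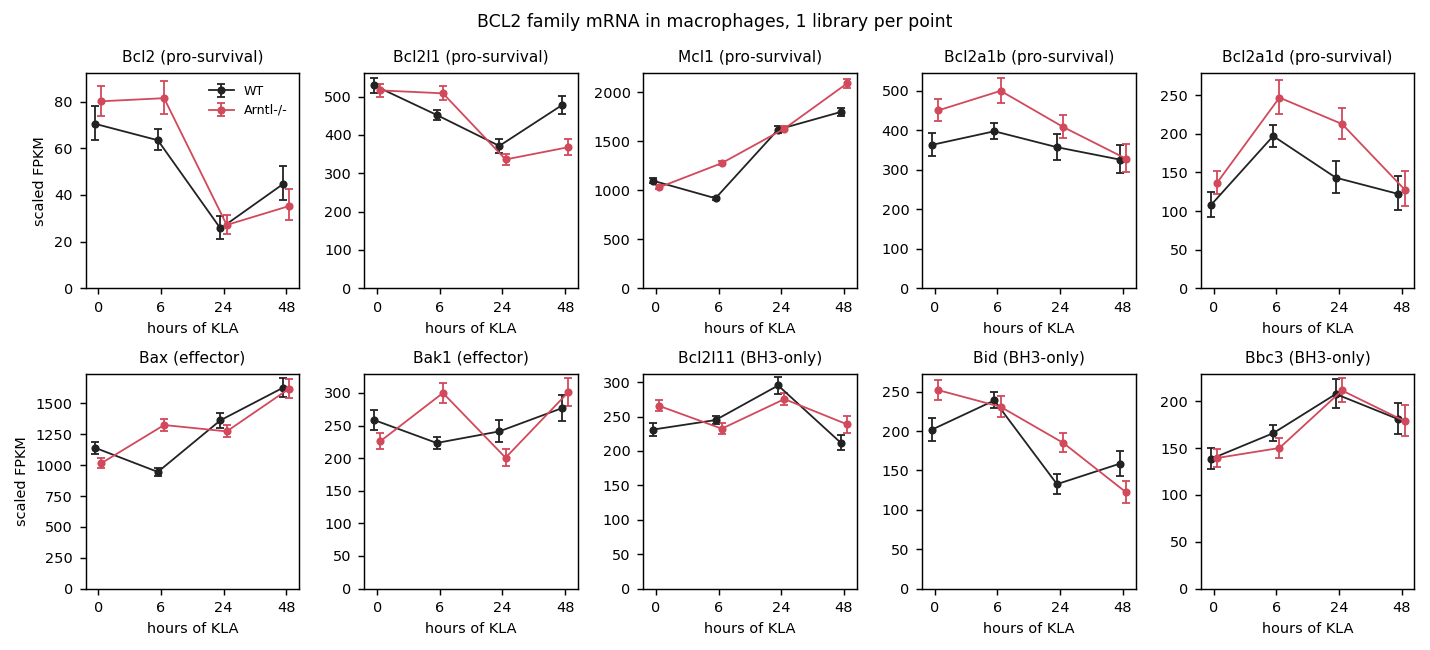
Scaled FPKM (vertical axis, from 0, its own scale for each gene) of the 10 members at 0, 6, 24 and 48 h of KLA in WT (black) and Arntl-/- (red) macrophages. Each point is 1 library and bars are 95% counting intervals; the Bcl2 points drop at 24 h in both genotypes, and the Arntl-/- points of Bcl2a1b and Bcl2a1d lie above the WT points at 0, 6 and 24 h.

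The second question was how the members changed after KLA in each genotype. Of the pro-survival genes, Bcl2, which holds back Bax at mitochondria and the endoplasmic reticulum, had the lowest level and the largest response to KLA. Its row (NM_177410, chr1:108608350-108610867 of mm9) gave scaled FPKM of 70.5, 63.5, 25.6 and 44.7 for WT and 80.2, 81.5, 27.1 and 35.3 for Arntl-/- over 0, 6, 24 and 48 h, the order used for all values by time. The 24 and 48 h libraries were all below the 0 and 6 h libraries in both genotypes. Bcl2 fell by 1.46 on the log2 scale by 24 h in WT cells (interval -1.78 to -1.15) and by 1.56 in Arntl-/- cells (-1.82 to -1.32), the largest changes of any member. At 48 h the fall from 0 h was 0.66 in WT cells (log2 interval -0.94 to -0.38) and the log2 change was -1.18 in Arntl-/- cells (-1.49 to -0.89). After correction for expression level the 48 h change in WT cells was -0.55, short of the line. The ratio of Arntl-/- to WT at 48 h was -0.34 on the log2 scale with an interval of -0.71 to 0.02, so this difference was not detectable at this depth. At 6 h the ratio was 0.36 (interval 0.20 to 0.52), with 0.23 as deposited and 0.45 after the correction, all short of the line. Levels rest on 108 to 780 reads. The row covers the annotated exon of 1970 bases at the gene's start, and none of the other exon of 5221 bases, and 548 of its bases lie outside both, so it does not measure the whole transcript.

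Bcl2l1 (chr2:152606400-152657464), which encodes Bcl-xL, had 529, 452, 371 and 478 scaled FPKM for WT and 516, 509, 336 and 368 in Arntl-/- cells. It was lowest at 24 h in both genotypes. The log2 change at 24 h was -0.51 in WT cells, short of the line, and -0.62 in Arntl-/- cells, past it, and the difference between these changes was not tested. At 48 h the WT library was back near its 0 h level (log2 change -0.15) while the Arntl-/- library stayed lower (-0.49), and the ratio between the genotypes at 48 h was -0.38 (interval -0.49 to -0.27). As deposited the 48 h changes were -0.28 for WT and -0.66 for Arntl-/-, and after correction for expression level -0.29 and -0.69, past the line for Arntl-/- only.

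Mcl1 (chr3:95462643-95467101), which encodes a short-lived protein that restrains Bak and Bim, had the highest mean level of all members, at the 98.1 percentile of the genes past the filter. Its scaled FPKM was 1097, 917, 1618 and 1797 for WT and 1029, 1276, 1627 and 2088 for Arntl-/-. In WT cells at 0 and 6 h and in Arntl-/- cells at 6 h, Bax was above Mcl1. The part of the limit on tags per position in this order was not tested. The level was highest at 48 h in both genotypes, with log2 changes from 0 h of 0.71 in WT cells (interval 0.67 to 0.76) and 1.02 in Arntl-/- cells (0.98 to 1.06). At 24 h the change was 0.56 in WT cells, just under the line, and 0.66 in Arntl-/- cells. After correction for expression level the 48 h changes were 0.31 and 0.43, and those at 24 h were 0.43 and 0.49, all above 0 and none past the line. At 6 h the log2 change was -0.26 in WT and 0.31 in Arntl-/- cells, and the ratio between the genotypes was 0.48 (interval 0.44 to 0.51). After the correction both changes were above 0, with 0.21 in WT and 0.084 in Arntl-/- cells, and the ratio was 0.034. The summed macrophage markers were also lowest in WT cells at 6 h and highest at 48 h, with 20161, 15088, 26635 and 37621 scaled FPKM for WT and 16992, 20360, 24967 and 33590 for Arntl-/-. Lyz2 was the largest part of these sums, with 9926, 7561, 13936 and 21812 for WT and 8395, 10266, 13533 and 17959 for Arntl-/-. Mertk, at a lower level, went otherwise, with 122, 138, 147 and 193 for WT and 108, 107, 165 and 141 for Arntl-/-. The sums were not corrected for expression level, and the part of the markers in the Mcl1 and Bax values was not tested.

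The Bcl2a1 copies encode A1, an NF-κB-inducible protein that binds BH3-only proteins. Bcl2a1d (chr9:88618126-88626688) had 107, 197, 143 and 122 scaled FPKM for WT and 136, 247, 213 and 128 for Arntl-/-. Both genotypes had their highest level at 6 h, with log2 changes from 0 h of 0.88 in WT cells (interval 0.64 to 1.12) and 0.86 in Arntl-/- cells (0.66 to 1.06). At 24 h the change was 0.42 in WT cells and 0.64, past the line, in Arntl-/- cells, where it was 0.58 and short of the line as deposited. The summed scaled FPKM of the 3 copies, which depends little on the split of reads because their exon lengths are 760 bases (Bcl2a1b) and 792 bases (the other two), changed less at 24 h, by 0.17 in WT cells (interval 0.033 to 0.31) and 0.15 in Arntl-/- cells (0.044 to 0.25), both short of the line. By 48 h the change of Bcl2a1d was 0.19 and -0.09 with intervals that held 0. Bcl2a1b (chr9:89094111-89102676) varied less, with 362, 397, 357 and 325 scaled FPKM for WT and 450, 499, 408 and 328 for Arntl-/-, and no change from 0 h past the line. Its change at 48 h in Arntl-/- cells was -0.46, and -0.63 as deposited and -0.62 after the correction, both past the line. That of the sum at 48 h was 0.020 for WT (-0.14 to 0.17) and -0.30 for Arntl-/- (-0.44 to -0.16).

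For the summed scaled FPKM of Bcl2a1a, Bcl2a1b and Bcl2a1d, the log2 change at 6 h was 0.45 in WT cells (interval 0.34 to 0.56) and 0.39 in Arntl-/- cells (0.29 to 0.48). Neither sum reached the 1.5-fold line, although as deposited the WT sum was 0.61, past it. Bcl2a1d passed it in both genotypes and Bcl2a1a passed it in WT cells (log2 change 1.05). The ratio of Bcl2a1d to Bcl2a1b moved from 0.296 at 0 h to 0.497 at 6 h in WT cells and from 0.303 to 0.495 in Arntl-/- cells. At 24 h it was 0.402 for WT and 0.522 for Arntl-/-. The ratio of Bcl2a1a to Bcl2a1b was 0.187 at 0 h and 0.355 at 6 h for WT, against 0.240 and 0.323 for Arntl-/-. These ratios rest on the uncertain split of reads.

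Bcl2a1b and Bcl2a1d were the members higher in Arntl-/- cells at 4 of 4 times with size factors. After correction for expression level Mcl1 and Bax were also above 0 at each time. The log2 ratio of Bcl2a1d was 0.35, 0.32, 0.57 and 0.07 at 0, 6, 24 and 48 h, and that of Bcl2a1b was 0.31, 0.33, 0.19 and 0.01. The summed copies gave 0.37, 0.30, 0.34 and 0.05, and the interval at 48 h (-0.12 to 0.22) held 0. The value for Bcl2a1d at 24 h, 1.48-fold, was the largest genotype ratio of any member, and as deposited it was past the line.

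Neutrophils also express Bcl2a1 genes, and the summed neutrophil markers were higher in Arntl-/- than in WT libraries at each time. The 7 of 8 listed neutrophil markers that had a row summed to 512, 538, 606 and 928 scaled FPKM for WT and 905, 1015, 839 and 943 for Arntl-/-. S100a9, a calcium-binding protein of neutrophils and monocytes, had 164, 207, 148 and 10.1 for WT and 403, 428, 371 and 9.00 for Arntl-/-. S100a8, which made up most of the sum at 48 h, had 308, 282, 429 and 910 for WT and 401, 514, 411 and 905 for Arntl-/-, so it was not higher in Arntl-/- cells at 24 or 48 h. Ngp, a granule gene of immature neutrophils, had 37.2, 33.3, 17.1 and 0 for WT and 83.4, 55.2, 38.4 and 2.70 for Arntl-/-. Camp, another granule gene, had 0, 14.5, 10.1 and 7.58 for WT and 12.4, 17.9, 13.5 and 26.3 for Arntl-/-, so both were higher in Arntl-/- cells at all 4 times. Cxcr2, at low levels, had 3.10, 1.28, 1.57 and 0 for WT and 4.95, 0.777, 5.26 and 0 for Arntl-/-, so it was lower in Arntl-/- cells at 6 h. Mpo was at 0 in all libraries and Elane in all but Arntl-/- at 24 h, where it was 0.875. The part of these cells in the Bcl2a1 values was not tested.

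**Figure D2:**
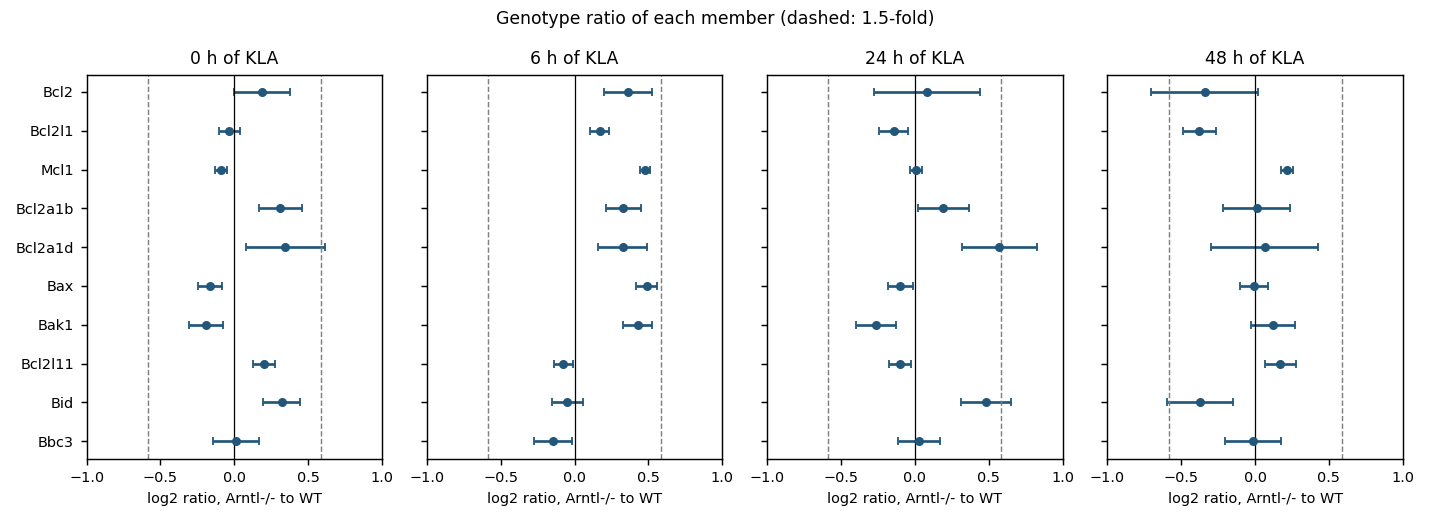
Log2 ratio of Arntl-/- to WT scaled FPKM (horizontal axis) for each member at 0, 6, 24 and 48 h of KLA, with 95% counting intervals (bars) and 1.5-fold marked by dashed lines. No point lies past a dashed line, and Bcl2a1d at 24 h comes closest at 0.57.

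Of the effectors, Bax (chr7:52717065-52722268 of mm9) was the more abundant and made up 80.9 to 86.4% of the summed scaled FPKM of Bax and Bak1. Bax had 1140, 945, 1364 and 1628 scaled FPKM for WT and 1017, 1326, 1274 and 1621 for Arntl-/-. The 48 h library was the highest in each genotype, with log2 changes of 0.51 in WT cells and 0.67, past the line, in Arntl-/- cells. After correction for expression level these were 0.13 and 0.11. At 6 h the change was -0.27 in WT and 0.38 in Arntl-/- cells, and the ratio between the genotypes was 0.49 (interval 0.42 to 0.56). After the correction these changes were 0.17 and 0.16 and the ratio was 0.062.

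Bak1 (chr17:27156757-27165571) had 259, 223, 241 and 277 scaled FPKM for WT and 226, 300, 201 and 301 for Arntl-/-, and none of its changes was past the line. Its genotype ratio changed direction with time, with log2 values of -0.19, 0.43, -0.26 and 0.12 at 0, 6, 24 and 48 h. Unlike that of Bax, the 6 h ratio stayed at 0.36 after the correction.

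Of the BH3-only genes, Bid (chr6:120843137-120866838), whose protein is cut by caspase-8 and so links death receptors to mitochondria, had 202, 239, 133 and 158 scaled FPKM for WT and 252, 231, 185 and 122 for Arntl-/-. WT cells had their lowest level at 24 h and Arntl-/- cells at 48 h. The log2 change from 0 h was -0.60 (24 h) then -0.35 (48 h) in WT cells, while Arntl-/- cells gave -0.45 then -1.04. The genotype ratio was 0.48 at 24 h (interval 0.31 to 0.65) and -0.37 at 48 h (-0.59 to -0.15). With 1 library per time, a shift in time and the spread between cultures cannot be told apart.

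Bbc3 (chr7:16894932-16903683), which encodes Puma, a target of p53, had 138, 166, 208 and 181 scaled FPKM for WT and 139, 150, 211 and 179 for Arntl-/-. It was past the line at 24 h in both genotypes, with log2 changes of 0.59 (interval 0.43 to 0.75) and 0.60 (0.47 to 0.73), close to the line itself. As deposited it was short of the line in both (0.55 and 0.53), and with upper-quartile scaling in Arntl-/- cells (0.58). The genotype ratio lay between -0.14 and 0.03 on the log2 scale over the 4 times.

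Bcl2l11 (chr2:127951774-127988283), which encodes Bim, a broad antagonist of the pro-survival proteins, stayed within 1.39-fold over the 8 libraries, the narrowest range of any member. It had 231, 245, 295 and 212 scaled FPKM for WT and 266, 232, 275 and 239 for Arntl-/-. The median range of genes past the filter was 1.61-fold, and that of Bcl2 was 3.18-fold.

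**Figure D3:**
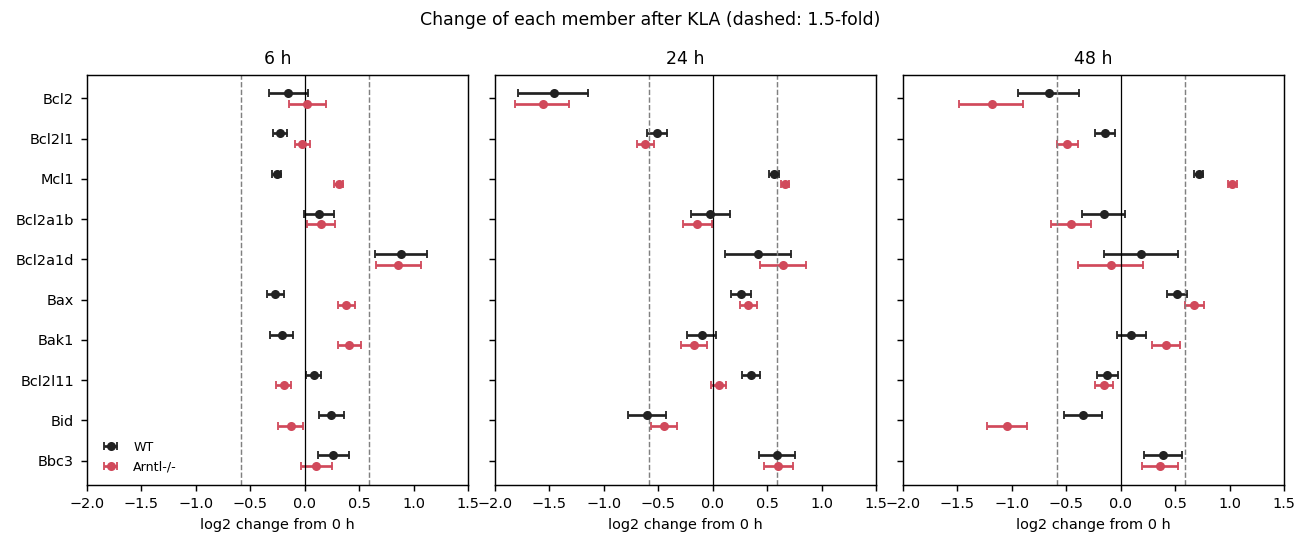
Log2 change from 0 h (horizontal axis) of each member at 6, 24 and 48 h of KLA in WT (black) and Arntl-/- (red) cells, with 95% counting intervals (bars) and 1.5-fold marked by dashed lines. Bcl2a1d is past the line at 6 h and Bcl2 at 24 and 48 h in both genotypes, the last in WT cells only without correction for expression level.

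Counted over the members, 1 was higher past the line at 6 h in WT cells and none lower, where 4.55% of all genes past the filter were higher and 3.20% lower. Likewise, 1 was higher and none lower for Arntl-/- at 6 h (all genes 2.77% and 2.72%). At 24 h, 1 member was higher and 2 lower in WT cells (7.96% and 7.96%), and 3 were higher and 2 lower in Arntl-/- cells (7.38% and 8.69%). At 48 h, 1 was higher and 1 lower in WT cells (12.5% and 14.4%), and 2 were higher and 2 lower in Arntl-/- cells (14.7% and 16.7%). As deposited, the 48 h counts in Arntl-/- cells were 1 higher (Mcl1) and 4 lower (Bcl2, Bcl2l1, Bcl2a1b and Bid), and after correction for expression level 0 higher and the same 4 lower. Of all genes past the line, the share upward was 58.7% for WT and 50.5% for Arntl-/- at 6 h, and 46.4% and 46.9% at 48 h. As deposited these shares were 91.9, 35.0, 30.9 and 28.8%, with upper-quartile scaling 75.5, 38.0, 39.4 and 41.4%, and after the correction 64.0, 64.2, 48.6 and 48.6%. With 10 members a count of 1 is 10% of them, so these counts are coarse beside the shares of all genes. The 3 comparisons of a genotype share its 0 h library.

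The makeup of the pro-survival group shifted with time in both genotypes. On the scale of FPKM, which is per length, Mcl1 made up 50.6, 45.2, 64.3 and 64.9% of the summed level of the 5 pro-survival members for WT and 46.5, 48.8, 62.3 and 70.9% in Arntl-/- cells. The 24 and 48 h libraries were all above the 0 and 6 h libraries. Mcl1 was 15.6 times Bcl2 in WT cells at 0 h and 63.1 times at 24 h, and 12.8 and 59.9 times in Arntl-/- cells. Summed pro-survival over summed BH3-only level lay between 3.12 (WT at 6 h) and 5.46 (Arntl-/- at 48 h), and summed pro-survival over effector level between 1.45 and 1.78. Mcl1 and Bax, whose values changed with the correction for expression level, had the highest levels in these sums. The part of the limit on tags per position in these shares and ratios was not tested.

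**Figure D4:**
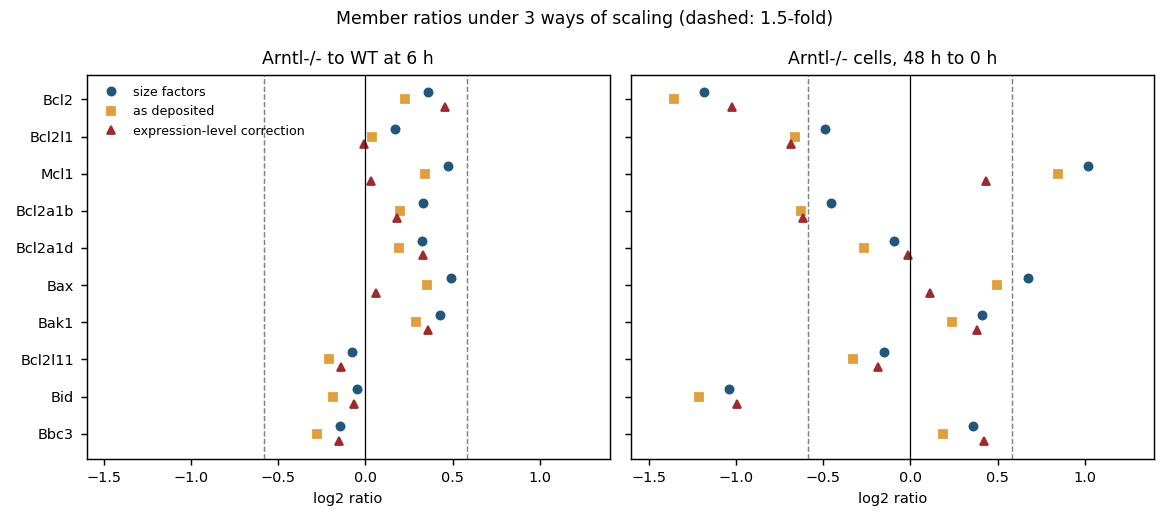
Log2 ratio (horizontal axis) of each member between genotypes at 6 h (left) and from 0 to 48 h in Arntl-/- cells (right) with size factors (circles), as deposited (squares) and after correction for expression level (triangles), with 1.5-fold marked by dashed lines. The triangles of Mcl1 and Bax lie nearest to 0 of their 3 values in both panels, whereas those of Bcl2 and Bid stay past the line at 48 h.

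Over the 8 libraries, Pearson's r of log2 levels was 0.94 between Mcl1 and Bax, 0.92 between Bcl2 and Bcl2l1 and -0.95 between Bcl2 and Bbc3. The points share libraries, and with them depth and scaling, and the coefficients are descriptions only. The genes most like Mcl1 over these libraries were Syk, Sat1 and Cd14 (r = 0.99 each), and those most like Bax were Aup1, Hcls1 and Cd52 (r = 0.99 each). Those most like Bcl2l11 were Arid2 (r = 0.98), Traf3 and Abhd15 (r = 0.96 each), and those most like Bcl2a1b were Ptrhd1 (r = 0.97), Pi4k2b (0.94) and Dpp7 (0.93).

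Promoter sequences (RefSeq, GRCm38.p6) were searched on both strands for the E-box CACGTG, the letters that Bmal1 dimers bind, in the 250 bases before each start. All 10 members matched, with 15 starts. The E-box was in 2 of these, that of Bax and 1 of 3 of Bbc3, and in 6.02% of the 32851 windows of all genes. The NF-κB consensus was in 1 of 3 starts of Bcl2l1 and 1 of 3 of Bbc3, against 3.90% of all windows. The bases before the start of Bax (chr7:45466899-45467148 of GRCm38.p6, minus strand) are shown because it is the member with a single annotated start that holds the E-box, in capitals, which begins 9 bases before the start.
Bax: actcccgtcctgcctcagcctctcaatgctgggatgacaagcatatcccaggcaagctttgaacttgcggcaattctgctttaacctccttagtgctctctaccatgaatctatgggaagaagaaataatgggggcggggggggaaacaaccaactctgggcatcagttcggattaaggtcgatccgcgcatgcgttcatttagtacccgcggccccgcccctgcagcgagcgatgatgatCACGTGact
Bax was not past the line between the genotypes at any of the 4 times, with log2 ratios of -0.17, 0.49, -0.10 and -0.01. A match of letters is a description and not a measured site.

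Around the members, 77 genes of the apoptosis pathway in 7 lists were followed, of which 66 passed the filter. Between the genotypes, 3 of the 66 were higher and none lower at 0 h (Bcl2a1a, Diablo and Naip5), none higher and 2 lower at 6 h (Bcl2l12 and Bmf), 1 higher and 1 lower at 24 h (Btrc and Tnfrsf10b), and 1 higher and none lower at 48 h (Rel). Shares of all genes, higher and lower, were 2.64% and 1.58% at 0 h, 1.93% and 1.87% at 6 h, 3.09% and 2.19% at 24 h, then 5.08% and 4.90%. None of the 66 was past the line at 3 or more times. From 0 h, 4 were higher and none lower at 6 h in WT cells, whereas 24 h gave 9 and 3 and 48 h gave 8 and 8. In Arntl-/- cells these counts were 2 and 1, 7 and 7, and 10 and 10. Beside these, the shares of all genes at 48 h were 12.5% higher and 14.4% lower for WT, and 14.7% and 16.7% for Arntl-/-. At 24 h they were 7.96% each way for WT, and 7.38% and 8.69% for Arntl-/-, and at 6 h 4.55% and 3.20%, and 2.77% and 2.72%.

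By list, the upward counts at 24 h were highest among the 10 other BCL2 family genes that passed the filter, with 4 higher and none lower in WT cells and 4 higher and 1 lower in Arntl-/- cells. Shares of all genes were 7.96% in each direction for WT, and 7.38% higher and 8.69% lower for Arntl-/-. The WT count includes Bcl2a1a, whose reads are split uncertainly. Of the 14 caspase and apoptosome genes, none was higher and 5 were lower at 48 h in Arntl-/- cells, where 16.7% of all genes were lower. In WT cells none was higher and 2 were lower, where 14.4% of all genes were lower, and the difference between these counts was not tested.

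Bmf, a BH3-only gene, and Fas, the death receptor for Fas ligand, were at least 2-fold above 0 h at 24 and 48 h in both genotypes. Bmf had 10.4, 14.0, 47.8 and 24.6 scaled FPKM for WT and 11.01, 8.08, 36.1 and 27.6 for Arntl-/-. Fas had 135, 203, 363 and 329 for WT and 133, 205, 362 and 387 for Arntl-/-. In both genes every 24 and 48 h library was above every 0 and 6 h library.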

How the data were processed

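PolyA RNA-seq of BMDMs was analyzed in 8 libraries, 1 per genotype and time. The authors aligned reads to mm9 with STAR, counted them with HOMER on exons of RefSeq genes on both strands with a limit of 3 tags per position, kept 1 transcript per gene and deposited FPKM per 10000000 reads. Versions are not given in the sources used here. Exon lengths are those deposited. In the table, 4 value columns that matched no sample used here and 1 fragment line were left out. FPKM multiplied by length fell on whole reads within 0.1 (100% of low values), which gave the reads behind each value. These were used for depth and exact 95% counting intervals (Poisson for a level, conditional binomial for a ratio), not for a test.

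Each library's values were divided by its size factor (median of ratios). Genes needed a mean of 100 scaled reads over the 8 libraries. Alternatives were upper-quartile scaling, deposited values without size factors, a lowess correction for expression level (fraction 0.3), pseudocounts of 1 and 0.01, a 2-fold line, no filter and a filter on WT libraries. All members are named, with listed genes past 1.5-fold between genotypes at 3 times or 2-fold from 0 h at 2 times in both genotypes, and the 3 genes most correlated with each of 4 members. Members and lists were chosen with earlier results of these data known. Steps were tested on simulated reads that had counting error, depth differences and known changes. The simulated reads had no spread between cultures, no bias by expression level and no limit on tags per position. Software was matplotlib 3.10.9, statsmodels 0.14.6, scipy 1.17.1, pandas 2.3.3, numpy 2.4.6 and Python 3.11.15.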

Additional observations from a re-analysis of the deposited data

Results flagged for a closer look

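With 1 library per condition, the differences of direction listed here were not tested, and their counting intervals lie on opposite sides of 0. From 0 to 6 h, log2 changes in WT and Arntl-/- cells were -0.26 and 0.31 for Mcl1, -0.27 and 0.38 for Bax, -0.21 and 0.41 for Bak1, 0.084 and -0.19 for Bcl2l11, and 0.24 and -0.13 for Bid. None of these was past the 1.5-fold line. After correction for expression level the changes were above 0 in both genotypes for Mcl1 (0.21 and 0.084) and Bax (0.17 and 0.16), while those of Bak1 (-0.16 and 0.36), Bcl2l11 (0.13 and -0.24) and Bid (0.26 and -0.14) kept their directions.

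The ratio of Arntl-/- to WT cells also changed direction between times. For Mcl1 its log2 value was -0.092 at 0 h, 0.48 at 6 h and 0.22 at 48 h, and for Bcl2l1 it was 0.17 at 6 h, -0.14 at 24 h and -0.38 at 48 h. For Bax it was -0.17, 0.49 and -0.10 at 0, 6 and 24 h, and for Bak1 -0.19, 0.43 and -0.26. For Bcl2l11 it was 0.20, -0.076, -0.10 and 0.17 at 0, 6, 24 and 48 h, and for Bid 0.32 at 0 h, 0.48 at 24 h and -0.37 at 48 h. After the correction Mcl1 was above 0 at 0, 6, 24 and 48 h (0.15, 0.034, 0.21 and 0.27), as was Bax (0.070, 0.062, 0.091 and 0.048), and Bcl2l1 at 6 h was -0.0084.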

How the results depend on the processing

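No paired analysis was possible because the groups share fewer than 2 replicate numbers. A fit of genotype with the 4 times as blocks, which would take times as replicates, was not made. The number of members past the line between genotypes stayed 0 at all 4 times under each alternative, except 1 at 24 h as deposited (Bcl2a1d, log2 ratio 0.62). As deposited, 1 member was past the line at 48 h in WT cells in place of 2, and 3 at 24 h in Arntl-/- cells in place of 5, and the summed Bcl2a1 change at 6 h in WT cells was 0.61, past the line, in place of 0.45. After correction for expression level, 0 members were past the line at 48 h in WT cells. With a 2-fold line the counts at 6, 24 and 48 h in WT cells were 0, 1 and 0, and at 6 and 24 h in Arntl-/- cells 0 and 1. The other totals stayed within 1.5 times, but at 48 h in Arntl-/- cells the correction replaced Mcl1 and Bax, higher, by Bcl2l1 and Bcl2a1b, lower. Of 100 member ratios, 8 crossed the line as deposited, 1 with upper-quartile scaling, 7 with the correction, 1 with a pseudocount of 1 and 0 with 0.01. The sign changed for 7 as deposited, 3 with upper-quartile scaling and 9 with the correction. The correction moved a ratio by up to 0.59 on the log2 scale. As deposited, the median of all genes shifted to 0.13 at 6 h in WT cells and to -0.18 at 48 h in Arntl-/- cells. Counting intervals limit the precision most for Bcl2 and Bcl2a1d, and the spread between cultures was not measured.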
